A study of Mus musculus with 6 samples.

Results

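The 10 genes FOS, FOSB, FOSL1, FOSL2, JUN, JUNB, JUND, ATF3, EGR1 and KLF4 were examined in RNA sequencing of 6 biopsies of mouse lung squamous cell carcinoma. They were chosen by symbol, as the rapidly inducible transcription factors of the AP-1 group with EGR1 and KLF4, from 46937 symbols in the count table, and all 10 were among the 21201 genes that passed the filter on low counts. The control tumours, called PSC, carry constitutively active PIK3CA H1047R, overexpressed SOX2 and a deletion of CDKN2A and CDKN2B, with wild-type NSD3. PSCN tumours have all of these and, in addition, NSD3 T1242A, a mutated form of a methyltransferase for lysines of histone H3. Each group held 3 libraries. The driver of the transgenes, the age of the mice and whether each biopsy came from a separate mouse are not stated in the labels. The p-values therefore reflect only how these 6 samples scatter. Values listed for a group are in the order of libraries 1 to 3.

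FOS and JUN proteins are basic leucine zipper proteins that bind DNA in pairs as AP-1. JUN proteins can pair with each other, while FOS proteins typically pair with a JUN protein. Growth factors acting through MAP kinases, and many stresses, switch on several of these genes within minutes without new protein synthesis, which is why they are called immediate early genes. In stratified epithelium AP-1 and KLF4 are known for their part in wound repair and in the differentiation of keratinocytes.

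Total counts per library lay between 69563622 and 72807077. Levels are CPM, counts scaled to library sizes adjusted by TMM factors. NSD3 stood at 79.7 to 101.7 CPM in PSC and at 820.7 to 1932 CPM in PSCN, which follows the labels. PSC library 3 correlated better with the PSCN libraries (mean r = 0.941 across genes, which are not independent replicates) than with the other PSC libraries (0.908). By the female transcript XIST and the Y-linked DDX3Y, PSC libraries 2 and 3 were female and the other 4 libraries male. Markers of basal squamous cells, such as KRT5 and KRT14, were present in every library. Their summed level over 11 of 12 listed markers was 610.0, 2359 and 6678 CPM across PSC libraries 1 to 3 and 7887 to 21197 CPM in PSCN. PSC library 1 was thus the lowest in squamous markers. The 7 club cell markers summed to 27549, 18336 and 3768 CPM across PSC libraries 1 to 3 and 571.4 to 1958 CPM in PSCN. Alveolar type 2 markers summed to 6947, 12500 and 1517 CPM across PSC libraries 1 to 3 and 2172 to 2882 CPM in PSCN. Ciliated cell markers summed to 1219, 576.1 and 227.7 CPM and to 249.2 to 345.2 CPM in the same order. PSC libraries 1 and 2 were thus above the other 4 libraries in the club, alveolar and ciliated sums. PSC library 3 was below every PSCN library in the last 2. The part of these markers in the differences between the groups was not tested. In bulk tissue, fewer cells of a type and less RNA per cell cannot be told apart.

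To place the genes, windows from 250 bases before to 50 bases after the annotated start were taken from RefSeq (GRCm38.p6), where 8 of the 10 genes had an entry that was used. The 5 below are shown because FOS, JUNB and KLF4 were higher in every PSCN library, ATF3 varied most among libraries, and JUN differed little. Capitals mark TGACG, the core of the cAMP response element, on either strand, the TATAAA box in FOS and JUNB, GCGGGGGCG, a known EGR1 recognition sequence, in KLF4, and TGACATCA, an AP-1-like element, in JUN.
FOS: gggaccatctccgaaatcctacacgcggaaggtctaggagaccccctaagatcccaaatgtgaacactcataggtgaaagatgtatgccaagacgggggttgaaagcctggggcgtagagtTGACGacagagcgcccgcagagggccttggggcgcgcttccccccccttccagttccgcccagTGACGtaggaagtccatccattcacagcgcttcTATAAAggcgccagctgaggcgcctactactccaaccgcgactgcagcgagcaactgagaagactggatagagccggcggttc
JUNB: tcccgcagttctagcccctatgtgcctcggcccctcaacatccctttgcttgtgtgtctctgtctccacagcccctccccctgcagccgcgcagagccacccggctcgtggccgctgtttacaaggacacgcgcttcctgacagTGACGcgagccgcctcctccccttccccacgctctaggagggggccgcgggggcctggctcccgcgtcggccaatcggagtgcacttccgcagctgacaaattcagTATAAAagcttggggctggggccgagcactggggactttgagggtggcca
KLF4: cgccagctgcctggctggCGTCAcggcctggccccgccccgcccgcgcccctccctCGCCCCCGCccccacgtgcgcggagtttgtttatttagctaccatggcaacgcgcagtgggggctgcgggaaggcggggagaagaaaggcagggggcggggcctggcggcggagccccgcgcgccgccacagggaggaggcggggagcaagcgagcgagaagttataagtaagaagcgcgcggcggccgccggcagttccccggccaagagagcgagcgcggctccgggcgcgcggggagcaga
ATF3: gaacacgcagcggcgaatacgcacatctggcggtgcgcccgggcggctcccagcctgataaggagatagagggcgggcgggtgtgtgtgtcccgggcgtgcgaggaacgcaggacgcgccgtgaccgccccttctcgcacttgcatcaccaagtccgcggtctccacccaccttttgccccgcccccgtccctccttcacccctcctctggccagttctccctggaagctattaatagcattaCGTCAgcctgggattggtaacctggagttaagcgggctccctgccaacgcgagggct
JUN: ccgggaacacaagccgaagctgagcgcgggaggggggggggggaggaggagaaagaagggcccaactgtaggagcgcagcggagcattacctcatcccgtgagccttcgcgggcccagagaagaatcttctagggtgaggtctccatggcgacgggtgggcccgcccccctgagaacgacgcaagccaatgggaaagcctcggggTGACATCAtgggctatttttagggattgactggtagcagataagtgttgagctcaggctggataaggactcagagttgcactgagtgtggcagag
The windows lie at chr12:85473640-85473939 on the plus strand for FOS and, on the minus strand, at chr8:84978699-84978998 for JUNB, chr4:55532426-55532725 for KLF4, chr1:191183284-191183583 for ATF3 and chr4:95052173-95052472 for JUN. The ATF3 window belongs to a start inside the longer GENCODE gene. TGACG or its complement was found in 5 of the 8 windows, those of FOS, FOSB, JUNB, KLF4 and ATF3, and in 20.8% of the 32851 RefSeq windows of this length. In FOS it starts 66 and 129 bases before the start, and in FOSB 60 bases before it. GCGGGGGCG on either strand was found in the windows of FOSB, FOSL2 and KLF4 and in 2.91% of all windows. TGACATCA was found only in the JUN window of the 8, and in 3.62% of all windows. TATAAA was found in the FOS and JUNB windows, 2 of the 8, and in 13.6% of all windows. In JUNB it begins at the RefSeq start itself. The GENCODE start of JUNB, at 84978718 on the minus strand, lies downstream of that start and of the TATAAA. The AP-1 sequence TGANTCA (7.81% of all windows), the full element TGACGTCA (1.79%) and the CArG box bound by SRF (1.63%) were found in 0 of the 8. Sequence more than 250 bases before the start was not searched, so these counts of 0 hold only for the windows. TGACG is part of TGACGTCA, and both strands were searched for each motif. A match is a description of the letters and not of binding.

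All 3 PSCN libraries had higher levels of FOS, JUNB, EGR1 and KLF4 than any PSC library, and the fitted fold changes between the groups were 1.61 to 2.59. JUN and JUND differed little, FOSB and FOSL1 were low in all libraries, and FOSL2 and ATF3 overlapped between the groups, with PSC library 3 high in both. None of the 10 genes passed an adjusted p of 0.05 in edgeR, where 0.00472% of all genes did. At an unadjusted p under 0.05 there were 4 genes higher and 0 lower, against 9.48% higher and 12.2% lower among all genes tested. The 4 whose groups did not overlap with PSCN above compare with 15.2% of all genes, and 0 lay below (13.4% of all genes). Of the 10 log2 fold changes 9 were positive with a median of 0.87, where 49.1% of all genes were positive and the median was -0.01. DESeq2's Wald test called 2 of the 10, FOS and KLF4 (4.02% of all genes were called higher), and limma-voom with quality weights called 3, FOS, JUNB and KLF4 (8.43%). The limma-voom fit gave PSC library 3 a weight of 0.36, the lowest of the 6, and PSC library 2 the highest, 2.92, so it rests little on the PSC library nearest to PSCN. Among all genes, 8.2% were called lower by DESeq2 and 5.84% by limma-voom. With edgeR, 0 of the 10 were also called with no filter (0.00311% of all genes called higher), with a filter of 1 CPM in 3 libraries (0.0183%) and without PSC library 1 (0.0046%).

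**Figure D1:**
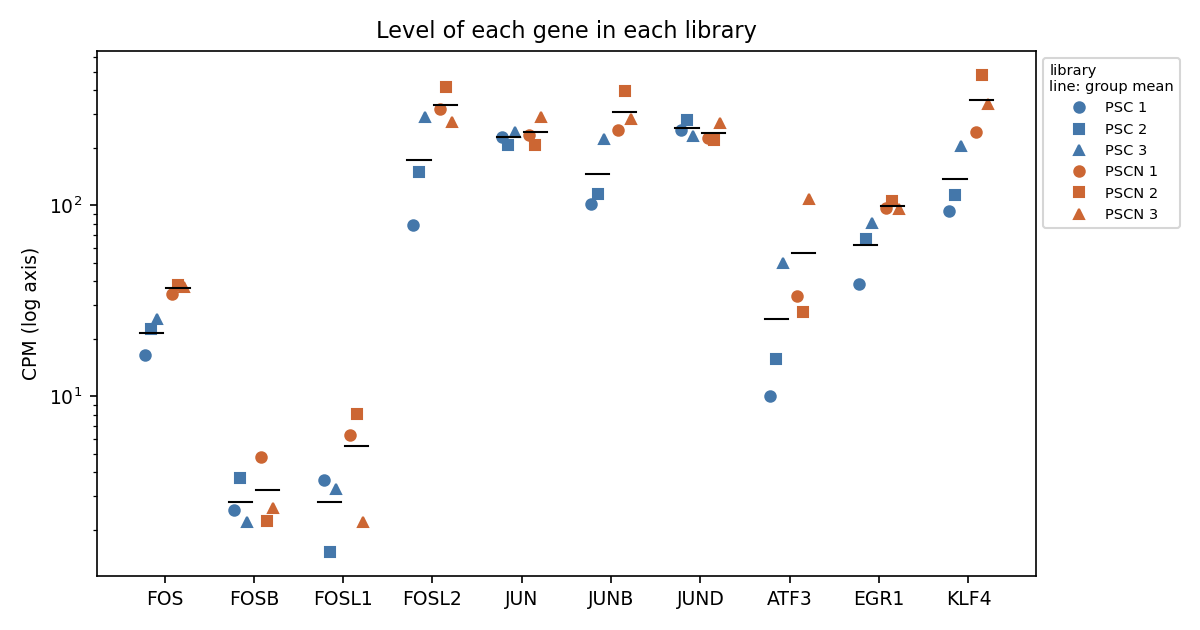
Level of the 10 genes in CPM on a log axis, with each point a library (blue PSC, orange PSCN) and each line a group mean. FOS, JUNB, EGR1 and KLF4 show all 3 PSCN points above all 3 PSC points, while JUN and JUND lie together in all 6 libraries.

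FOS encodes the founding FOS protein, a strong activator with a short-lived transcript (ENSMUSG00000021250.13, chromosome 12, 85473890 to 85477273 in GRCm38, plus strand). Its level was 16.4, 22.5 and 25.4 CPM across PSC libraries 1 to 3 and 34.3, 38.3 and 37.5 CPM across the PSCN group. The PSCN libraries lay close together, with a mean of 36.7 ± 2.12 CPM (SD, n = 3), and above the PSC mean of 21.4 ± 4.59 CPM (SD, n = 3). Between the groups the log2 fold change was 0.78 (SE 0.20, 95% interval 0.29 to 1.26; edgeR adjusted p = 0.187). Without each library in turn it ran from 0.62 to 0.93, and against PSC library 3 alone it was 0.51. In the authors' deposited table FOS had a log2 fold change of 0.77 and an adjusted p of 0.0215, where 3.92% of genes were called higher.

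FOSB, a close relative of FOS (ENSMUSG00000003545.3, chromosome 7, 19302696 to 19310051), stood at 2.52, 3.72 and 2.18 CPM in the PSC group and 4.83, 2.21 and 2.61 CPM in the PSCN group. The groups overlapped, and PSCN library 1 alone was above all PSC libraries. The log2 fold change was 0.20 (95% interval -0.83 to 1.22), and -0.21 without PSCN library 1. These levels rest on 143 to 331 counts per library.

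FOSL1, also called FRA1, lacks the strong activation domain of FOS and is known from invasive epithelial tumours (ENSMUSG00000024912.6, chromosome 19, 5447547 to 5455946). It stood at 3.63, 1.53 and 3.26 CPM in the PSC group and 6.28, 8.02 and 2.20 CPM in the PSCN group. PSCN libraries 1 and 2 were above all PSC libraries, and PSCN library 3 was below PSC libraries 1 and 3. This gave a log2 fold change of 0.97 (SE 0.58, 95% interval -0.44 to 2.39), which was 0.55 without PSCN library 2 and 0.60 with sex as a covariate. The protein-coding gene CCDC85B overlaps FOSL1 on the other strand and stood at 20.7 CPM for PSC and 18.5 CPM for PSCN, and the labels do not say whether strand was used in counting.

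FOSL2, or FRA2, is the FOS-family gene with the highest count here (ENSMUSG00000029135.10, chromosome 5, 32135801 to 32157842, plus strand). Its level was 78.6, 148.6 and 291.5 CPM in the PSC group and 321.1, 415.7 and 272.5 CPM in the PSCN group. PSC library 3 lay above PSCN library 3, and the PSC group spread over a wide range with a mean of 172.9 ± 108.5 CPM (SD, n = 3), against 336.4 ± 72.8 CPM (SD, n = 3) in PSCN. The log2 fold change was 0.96 (SE 0.48, 95% interval -0.22 to 2.14; edgeR adjusted p = 0.293). Leaving out PSC library 3 gave 1.58, with groups that then did not overlap, and leaving out PSC library 1 gave 0.61. Against PSC library 3 alone it was 0.19, and with sex as a covariate 2.10.

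Per kilobase of merged exon length, the FOS family summed to 17.3, 26.3 and 42.8 CPM per kb across PSC libraries 1 to 3 and to 51.6, 63.5 and 45.6 CPM per kb across the PSCN group. All PSCN sums were above all PSC sums, though PSC library 3 and PSCN library 3 were near each other. FOSL2 made up 47.0, 58.4 and 70.3% of the sum in PSC and 64.3, 67.6 and 61.7% in PSCN, the largest share in each library. FOS followed with 40.3, 36.5 and 25.2% in PSC and 28.2, 25.6 and 35% in PSCN. FOSB and FOSL1 shared the rest, with FOSB at most 2.34% in any library and FOSL1 at most 10.3%. The shares overlapped between the groups for each of the 4 genes.

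**Figure D2:**
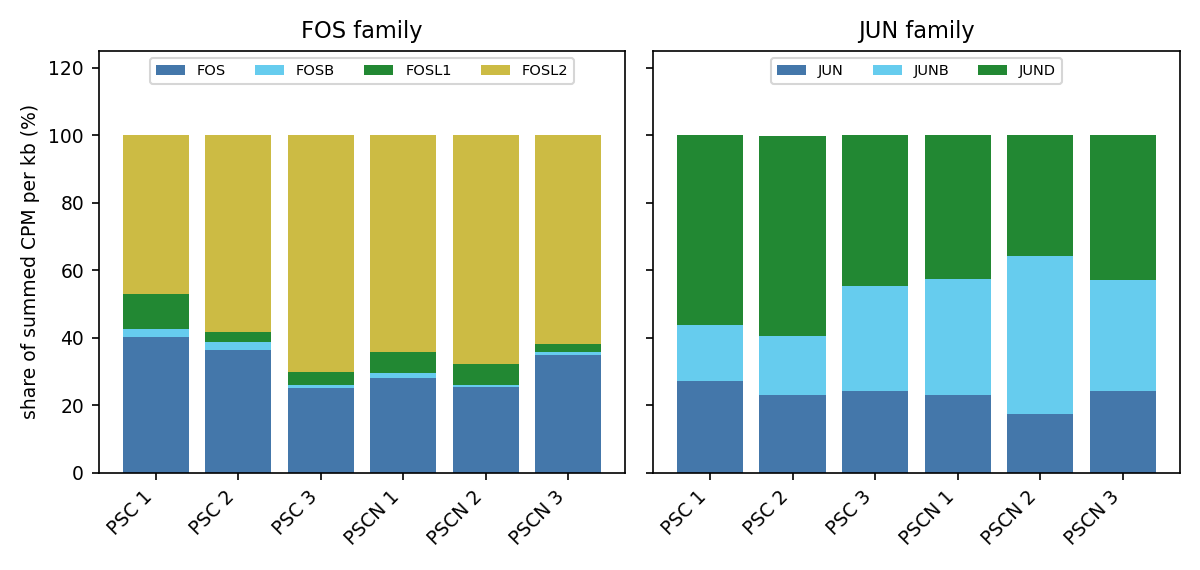
Share in percent of each gene in the summed CPM per kb of the FOS family (left) and the JUN family (right), with 1 bar per library. FOSL2 takes the largest share of the FOS family in all 6 libraries, and the JUNB share of the JUN family is lowest in PSC libraries 1 and 2.

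JUN, the main partner of FOS proteins (ENSMUSG00000052684.4, chromosome 4, 95049034 to 95052222, minus strand), stood at 228.9, 207.7 and 243.1 CPM in the PSC group and 233.6, 207.6 and 289.5 CPM in the PSCN group. The groups overlapped, with PSCN library 3 the highest of all. The log2 fold change was 0.10 (SE 0.18, 95% interval -0.33 to 0.54), an interval that still holds changes of either sign. JUND, the JUN protein that is usually present in resting cells (ENSMUSG00000071076.6, chromosome 8, 70698949 to 70700616), stood at 246.7, 280.4 and 231.8 CPM in the PSC group and 224.9, 221.0 and 268.7 CPM in the PSCN group. Its highest and lowest libraries differed 1.27-fold, the smallest ratio among the 10 genes. JUND had a log2 fold change of -0.09 (95% interval -0.48 to 0.31). The antisense genes JUNOS and GM11175, which overlap JUN and JUND, stood at no more than 5.12 CPM in either group's mean.

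JUNB, a JUN protein with weaker activating function that can oppose JUN (ENSMUSG00000052837.6, chromosome 8, 84974484 to 84978718, minus strand), stood at 101.5, 114.0 and 223.7 CPM in the PSC group and 247.6, 396.3 and 283.4 CPM in the PSCN group. PSC library 3 lay nearer to the PSCN libraries than to the other PSC libraries, yet below all of them. The means were 146.4 ± 67.3 CPM for PSC and 309.1 ± 77.6 CPM for PSCN (SD, n = 3 each), with a log2 fold change of 1.08 (SE 0.37, 95% interval 0.18 to 1.98; edgeR adjusted p = 0.197). Without PSC library 3 the log2 fold change was 1.53 and JUNB passed with an adjusted p of 0.0440 in edgeR, where 3.39% of genes were called higher. Against that library alone it was 0.45. PRDX2, a peroxiredoxin gene on the other strand that overlaps JUNB, stood at 118.3 CPM for PSC and 165.2 CPM for PSCN, so a part of its reads may be counted with JUNB or the reverse.

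The JUN family summed to 263.8, 282.8 and 312.5 CPM per kb across PSC libraries 1 to 3 and to 315.7, 369.8 and 375.0 CPM per kb across the PSCN group. PSC library 3 and PSCN library 1 were close. JUND held the largest share in 5 libraries, with 56.1, 59.4 and 44.5% in PSC and 42.7% and 43.0% in PSCN libraries 1 and 3. In PSCN library 2 JUNB was first, at 46.6%, against 35.8% for JUND. The JUNB share was 16.7, 17.5 and 31.1% in PSC and 34.1, 46.6 and 32.8% in PSCN, so PSC library 3 fell just short of the lowest PSCN library. The ratio of JUNB to JUND per kb, which sets a gene that varied against one that hardly did, was 0.298, 0.295 and 0.700 in PSC and 0.798, 1.3 and 0.764 in PSCN. The JUN family exceeded the FOS family in each library, by a ratio of 15.3, 10.8 and 7.29 in PSC and 6.12, 5.82 and 8.23 in PSCN.

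ATF3, a stress-induced factor that pairs with JUN proteins and often represses (ENSMUSG00000026628.13, chromosome 1, 191170296 to 191218039, minus strand), was the most variable of the 10 genes. It stood at 10, 15.7 and 50 CPM in the PSC group and 33.5, 27.6 and 107.9 CPM in the PSCN group, a 10.8-fold ratio between the highest and the lowest library. PSC library 3 was above PSCN libraries 1 and 2, and PSCN library 3 stood far above all others. Its log2 fold change was 1.16 (SE 0.79, 95% interval -0.78 to 3.09; edgeR adjusted p = 0.412). Leaving out PSC library 3 gave 2.14, and leaving out PSCN library 3 gave 0.26. With sex as a covariate it was 2.49. The summed level of 12 leukocyte markers, none of them at 0, was also highest in these libraries, at 1098 CPM in PSC library 3 and 1745 CPM in PSCN library 3. It was 303.0 and 427.7 CPM in PSC libraries 1 and 2 and 693.5 and 929.1 CPM in PSCN libraries 1 and 2, and its part in the ATF3 level was not tested.

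EGR1, a zinc finger immediate early factor outside AP-1 that is switched on through SRF and ELK factors (ENSMUSG00000038418.7), stood at 38.5, 66.3 and 80.3 CPM in the PSC group and 97.2, 104.8 and 96.2 CPM in the PSCN group. The PSCN libraries were nearly equal, with a mean of 99.4 ± 4.74 CPM (SD, n = 3), and PSC library 1 was the lowest by far. The log2 fold change was 0.69 (SE 0.28, 95% interval 0.02 to 1.36; edgeR adjusted p = 0.225). Leaving out PSC library 1 gave 0.44, the lowest value when any library was left out, and against PSC library 3 alone it was 0.29. With sex as a covariate it was 1.37. Among the EGR genes and NAB corepressors, 4 of 5 were tested and 0 passed the adjusted threshold in edgeR. At an unadjusted p under 0.05 in edgeR, 2 were higher and 0 lower, where 9.48% and 12.2% of all genes were. DESeq2 called 0 and limma-voom 1, which was higher, where 4.02% and 8.43% of all genes were called higher. NAB2, a corepressor that EGR1 itself induces, stood at 29.1, 37.4 and 36.5 CPM in the PSC group and 58.7, 56.3 and 43.7 CPM in the PSCN group (log2 fold change 0.62, SE 0.18). Its relative NAB1 had a log2 fold change of 0.94 (SE 0.30), while EGR2 was at 0.10 (SE 0.41) and EGR3 at 0.04 (SE 0.53).

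KLF4, a zinc finger factor of barrier formation in stratified epithelium and of pluripotency (ENSMUSG00000003032.8, chromosome 4, 55527143 to 55532466, minus strand), had the largest log2 fold change of the 10 genes. It stood at 93.7, 113.2 and 205.2 CPM in the PSC group and 241.1, 483.8 and 341.3 CPM in the PSCN group. PSCN library 2 was the highest, and PSC library 3 lay just under PSCN library 1. The means were 137.4 ± 59.5 CPM for PSC and 355.4 ± 122.0 CPM for PSCN (SD, n = 3 each), a log2 fold change of 1.37 (SE 0.40, 95% interval 0.40 to 2.34; edgeR adjusted p = 0.191). Without PSC library 3 it was 1.79, with an adjusted p of 0.0473, and 0.78 against PSC library 3 alone. In the authors' deposited table KLF4 had a log2 fold change of 1.38 and an adjusted p of 0.0279.

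Squamous marker sums were also higher in every PSCN library, with KRT5 and KRT14 the largest parts of the basal sum there. Of 11 basal markers tested, 5 lay above without overlap of the groups, where 15.2% of all genes did. In edgeR 0 of these 11 were higher or lower at an unadjusted p under 0.05, where 9.48% and 12.2% of all genes were. The summed level of 15 of 16 listed suprabasal squamous markers was 84.5, 796.8 and 3221 CPM across PSC libraries 1 to 3 and 7267, 12673 and 5862 CPM across the PSCN group. PSCN library 2, highest in these markers and in the basal ones, was also highest in KLF4, JUNB, FOSL2, FOSL1, FOS and EGR1. Of 14 suprabasal markers tested, 12 lay above without overlap of the groups. In edgeR 6 of the 14 were higher and 0 lower at an unadjusted p under 0.05. The median over these 14 was 2.52 on the log2 scale and none was negative, while the median of the 10 factors was 0.87. At the adjusted threshold edgeR called 0, limma-voom 6 and DESeq2 5, all higher (8.43% and 4.02% of all genes for the last 2). Of the suprabasal markers 2 were at 0 in PSC library 1 and 1 in PSCN library 3. Their part in the levels of the 10 factors was not tested. Markers of stroma summed to 42028 CPM in PSCN library 1 and to 1470 to 4253 CPM in the other 5 libraries. Most of the sum in PSCN library 1 was collagen, with COL1A1 at 19229 CPM and COL1A2 at 16833 CPM. PECAM1, CDH5, VWF and ACTA2 were highest in PSC library 1, and the remaining stromal markers in PSCN library 1. Among the 10 genes, PSCN library 1 was the highest PSCN library only in FOSB.

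**Figure D3:**
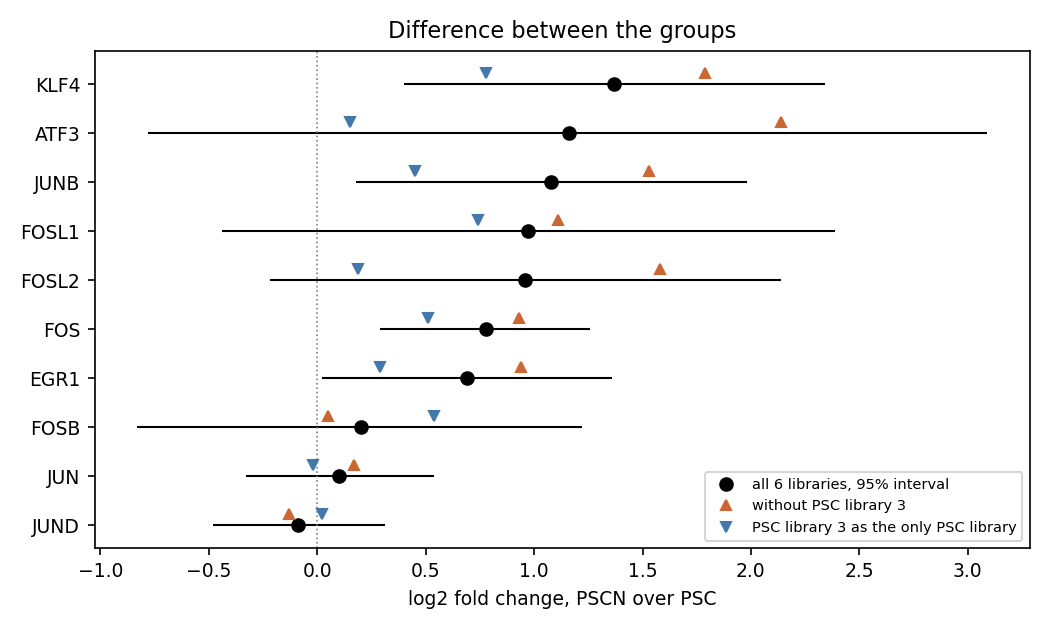
Log2 fold change of PSCN over PSC for each gene, as black points with 95% intervals from all 6 libraries, and as triangles with PSC library 3 left out or kept as the only PSC library. For KLF4 the value was 1.79 without that library and 0.78 against it alone, and for ATF3 it was 2.14 and 0.15.

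Relative to their own mean over the 6 libraries, the 10 genes averaged -0.72, -0.46 and 0.06 on the log2 scale across PSC libraries 1 to 3 and 0.32, 0.43 and 0.37 across the PSCN group. PSC library 3 thus lay between the groups. PSC library 1 was the lowest of all libraries in 6 of the 10 genes, and PSC library 3 the highest of the PSC libraries in 7 of them. Leaving out PSC library 3, the groups did not overlap in 6 of the 10 genes, with FOSL2 and ATF3 added, against 27.7% of all genes. Leaving out PSCN library 3 it was also 6, with FOSL1 and FOSL2 added, against 19.3% of all genes. Leaving out any of the other 4 libraries it was 4, against 17.7, 16.7, 22.2 and 18.7% of all genes without PSC library 1, PSC library 2, PSCN library 1 and PSCN library 2. Against PSC library 3 alone the median of the 10 log2 fold changes was 0.37, given as a value only, since that arm is 1 library.

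**Figure D4:**
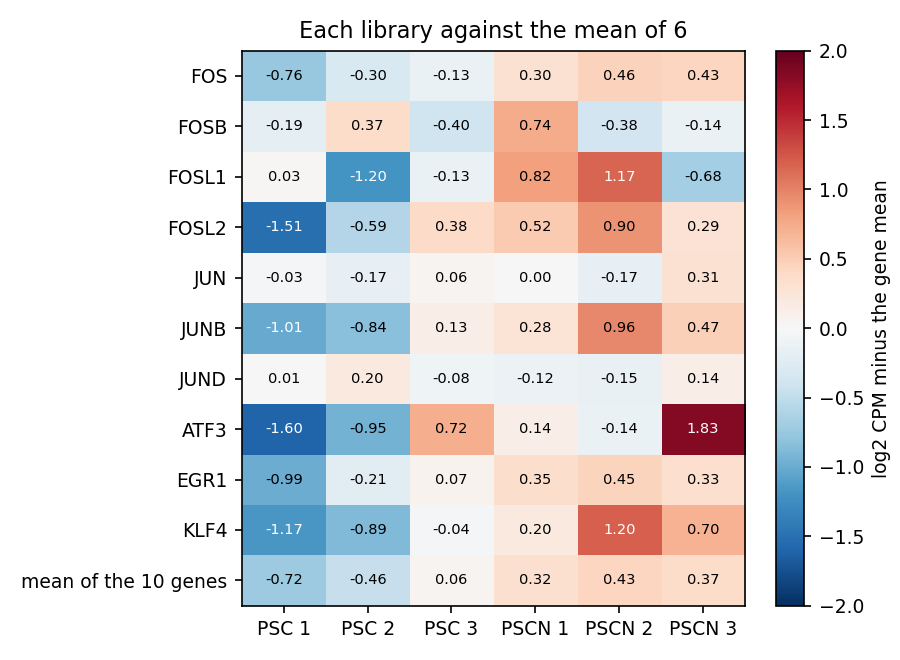
Log2 CPM of each gene minus its mean over the 6 libraries, in colour and as numbers, with the mean of the 10 genes in the last row. PSC libraries 1 and 2 are mostly blue and the PSCN libraries mostly red, and PSC library 3 averages 0.06.

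Ordered per kilobase of exon, the mean over all 6 libraries ran from JUND at 147.2 CPM per kb through JUNB (99.0), KLF4 (80.8), JUN (73.7), FOSL2 (26.3), ATF3 (18.9), EGR1 (18.0), FOS (12.4) and FOSL1 (2.04) to FOSB at 0.482 CPM per kb. In PSC, JUND at 139.0 to 168.1 CPM per kb stood apart from the next genes. JUN, JUNB and KLF4 followed with ranges of 65.1 to 76.2, 44.1 to 97.2 and 30.7 to 67.3 CPM per kb, in which neighbours overlapped. In PSCN, JUND no longer stood apart: its range of 132.5 to 161.1 CPM per kb lay within that of JUNB, 107.6 to 172.2, and overlapped that of KLF4, 79.1 to 158.7. JUN, at 65.1 to 90.8 CPM per kb, overlapped KLF4 there too. FOSL2, ATF3, EGR1 and FOS overlapped as a chain of neighbours in PSC. In PSCN, FOS at 14.6 to 16.3 CPM per kb lay below EGR1 at 21.4 to 23.4 CPM per kb without overlap. FOSL1 was below FOS and FOSB below FOSL1 without overlap in both groups.

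The genes whose profile over the 6 libraries was nearest to each of the 10 were found by the root mean square difference of log2 CPM after taking away each gene's mean, among genes of at least 5 CPM. For FOS these were the kinase TNK2 (0.0681) and the proton pump subunit ATP6V1E1 (0.0838). For EGR1 they were the laminin chain LAMB3 (0.048), which is also on the list of basal squamous markers, and the nuclear import factor TNPO3 (0.077). For FOSL2 the nearest was the receptor EGFR (0.0842), at 29.4, 65.9 and 114.8 CPM in the PSC group and 121.4, 173.2 and 109.7 CPM in the PSCN group, then IGSF3 (0.106). JUNB was nearest to TXNDC17 (0.0613) and FAM160A1 (0.0868). KLF4 was nearest to the galectin LGALS3 (0.0626), at 187.3, 223.7 and 403.7 CPM in the PSC group and 434.1, 884.2 and 622.5 CPM in the PSCN group, and then to TXNDC17 (0.116). JUN was nearest to QTRT1 (0.048) and ADH5 (0.0558), and JUND to CAMK2D (0.0204) and RAP2A (0.0404). ATF3 had no gene as near, with the receptor GPR35 at 0.203 and the hexokinase HK3 at 0.253. The same held for FOSL1, with PCDH7 at 0.277 and TNFRSF22 at 0.317, and in part for FOSB, with PPIC at 0.140 and APBB2 at 0.156. The difference is not scaled to a gene's own spread, so it tends to be larger for genes that vary more, such as ATF3. For each of the 10, 12345 or 12346 genes were searched over only 6 libraries, so near profiles are easily found.

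Other immediate early genes were counted in the same way. Of 36 tested from a list of 37, edgeR called 0 higher and 0 lower. At an unadjusted p under 0.05 in edgeR, 12 were higher and 2 lower, where 9.48% and 12.2% of all genes were. DESeq2 called 5 higher and 0 lower (4.02% and 8.2% of all genes), and limma-voom 8 and 1 (8.43% and 5.84%). Their median log2 fold change was 0.39, with 27 positive (75%, where 49.1% of all genes were). Without overlap of the groups 8 lay above and 1 below, where 15.2% and 13.4% of all genes did. PLK2, a polo-like kinase induced by serum, had the smallest p, with 78.4, 77.2 and 83.9 CPM in the PSC group and 194.5, 253.1 and 208.0 CPM in the PSCN group. PSC library 3 stayed with its group for this gene, and the log2 fold change was 1.45 (SE 0.16, edgeR adjusted p = 0.137). GADD45B, a stress-induced regulator of MAP kinase signalling, stood at 29.6, 34.8 and 40.0 CPM in the PSC group and 69.0, 67.6 and 89.4 CPM in the PSCN group (log2 fold change 1.11, SE 0.19). PPP1R15A, the phosphatase subunit that restores translation after stress, was at 0.95 (SE 0.22) on that scale, and IER3 was at 0.91 (SE 0.25). The orphan receptors NR4A1, NR4A2 and NR4A3, singled out after their values were seen as classic genes of this kind, had log2 fold changes of -0.25 (SE 0.37), -0.31 (SE 0.28) and -0.05 (SE 0.39). Without PSC library 3 the list had 15 higher and 1 lower at that level, where 16% and 17.3% of all genes were, and 6 and 1 of them passed the adjusted threshold, as did 3.39% and 5.4% of all genes.

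Upstream of FOS and JUN act MAP kinases and SRF with its ELK partners. Of 23 tested from a list of 24, edgeR called 0, and 2 were higher and 2 lower at an unadjusted p under 0.05, shares near those of all genes (9.48% and 12.2%). The median log2 fold change was 0.21, with 16 positive and 7 negative. DESeq2 called 1 higher and 1 lower (4.02% and 8.2% of all genes), and limma-voom 2 and 2 (8.43% and 5.84%). MAP2K3, which activates p38 kinases, stood at 46.3, 40.4 and 53.9 CPM in the PSC group and 75.0, 104.3 and 94.6 CPM in the PSCN group (log2 fold change 0.96, SE 0.19). RPS6KA4, a kinase below p38 and ERK, had a log2 fold change of 0.94 (SE 0.33). MAP3K5, a stress-activated kinase at the head of the JNK and p38 branches, stood at 52.6, 61.2 and 38.0 CPM in the PSC group and 11.5, 25.4 and 23.4 CPM in the PSCN group (log2 fold change -1.33, SE 0.35). ELK4, an SRF partner, had -0.41 (SE 0.14). Without PSC library 3, 8 of 24 were higher and 3 lower at that level, where 16% and 17.3% of all genes were.

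Other basic leucine zipper partners of FOS and JUN proteins were tested in 13 of 14 cases, since NRL had 0 counts in all libraries. EdgeR called 0, and the median log2 fold change was 0.29. At an unadjusted p under 0.05 in edgeR, 3 were higher and 0 lower, where 9.48% and 12.2% of all genes were. DESeq2 called 1 and limma-voom 2, all higher, where 4.02% and 8.43% of all genes were called higher. JDP2, a partner that represses AP-1, stood at 23.9, 36.2 and 44.0 CPM in the PSC group and 73.2, 49.3 and 86.7 CPM in the PSCN group (log2 fold change 1.01, SE 0.31). MAF had 0.82 (SE 0.26), and MAFA, at no more than 1.59 CPM in any library, had 1.3 (SE 0.45). NFE2L2, the NRF2 factor of oxidative stress, had 0.29 (SE 0.19) with overlapping groups.

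Genes known as AP-1 targets in epithelium mostly had positive log2 fold changes. Of 29 tested from a list of 30, edgeR called 0. At an unadjusted p under 0.05 in edgeR, 12 were higher and 0 lower, where 9.48% and 12.2% of all genes were. Without overlap of the groups 16 lay above, as did 15.2% of all genes. DESeq2 called 2 and limma-voom 9, all higher, where 4.02% and 8.43% of all genes were called higher. The median log2 fold change was 1.04, with 26 positive (49.1% of all genes were). SPRR1B, a precursor of the cornified envelope, was at 0, 0.119 and 1.57 CPM in the PSC group and 19.5, 282.4 and 26.2 CPM in the PSCN group. For AREG, a ligand of the EGF receptor, the log2 fold change came to 0.83 (SE 0.28). The collagenase MMP13 reached 1675 CPM in PSCN library 1, the library with the high COL1A1 and COL1A2 levels. It stood at 105.4 and 70.3 CPM in the other PSCN libraries and at 2.33, 3.55 and 34.6 CPM in PSC. Of the 30 listed, 7 are also in the squamous marker lists, among them KRT6A, which was not among the symbols counted. SPRR2A1 and SPRR2D, higher in every PSCN library, are not in those lists, though other SPRR genes are. The part of the squamous marker sums in these values was not tested. Against PSC library 3 alone the median of the targets was 0.53. Without that library, their median was 1.54 and 7 were called higher at the adjusted threshold in edgeR, as were 3.39% of all genes.

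**Figure D5:**
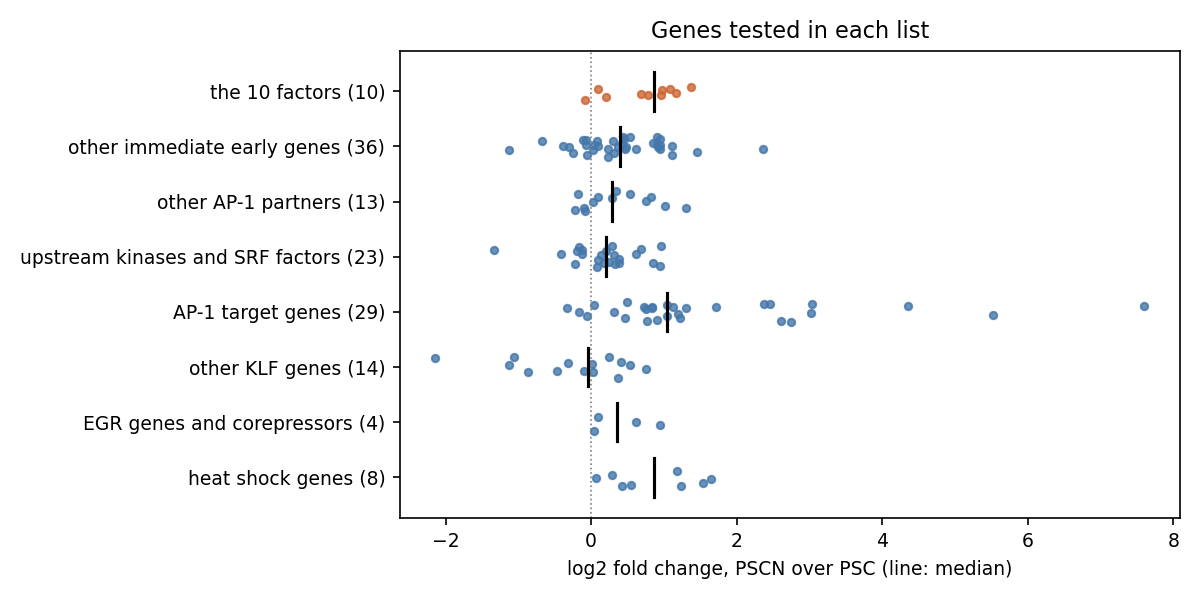
Log2 fold change of PSCN over PSC for the tested genes of each list, with the number tested in brackets and a line at the median. The 10 factors have a median of 0.87 and the AP-1 target genes 1.04, while the other KLF genes lie around 0.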

How the data were processed

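Total RNA libraries were made with a stranded kit and read at 76 nt, per the labels' protocols. Tools given in the submitters' processing notes are Trimmomatic, HISAT2, StringTie and DESeq2, with no versions, and the build is GRCm38. The authors deposited estimated counts per gene symbol, already whole numbers, used as they are. They also deposited DESeq2's mean normalized signal, log2 fold changes, a Wald score, and p-values with adjusted p-values. Columns were matched to samples by letter (C control, N mutant) and number.

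Genes were filtered with filterByExpr, scaled with TMM and fitted in edgeR 4.0.16 with its quasi-likelihood F test (R 4.3.3; residual degrees of freedom 4, prior 2.03), with Benjamini-Hochberg adjustment over all 21201 genes. SE is the log2 fold change over the square root of F. The fits were tested on simulated data. Changes there were larger than those of the 10 genes and no library was outlying, so this does not show how the fits perform here. Exon lengths came from GENCODE M21. Alternatives used DESeq2 1.42.0, limma 3.58.1, other scalings and filters, libraries left out, a replicate block and sex as a covariate. Counts of groups that do not overlap with libraries left out, and list counts by library, were added after seeing the data. An exact permutation test of 3 against 3 cannot go below 0.1, so none was run. The 10 genes and all lists were chosen with earlier results of these data known. Named genes were the 10, the up to 4 of each pathway list with the smallest p, and the 2 nearest in profile to each of the 10, leaving out predicted genes, pseudogenes and plain identifiers. 1 gene that this rule names is not reported here. Outside the rule, NR4A1, NR4A2 and NR4A3 were picked after their values were seen. Read counts carry no molecular identifiers, so reads from 1 molecule may be counted more than once.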

Additional observations from a re-analysis of the deposited data

How the results depend on the processing

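The count of genes past the adjusted threshold, 0 of 10, was also 0 under RLE and upper quartile scaling, no filter, a filter of 1 CPM in 3 libraries, the replicate block (0), sex as a covariate and PSCN set against PSC library 3 alone. These fits called at most 3 genes higher in the whole table, and 0 under the last 3 settings, so the counts say nothing about stability. DESeq2 called 2 and limma-voom with quality weights 3. Leaving out each library gave 0 to 2 calls, the 2 being JUNB and KLF4 without PSC library 3. The count of genes with all PSCN above all PSC libraries, 4 of 10, ran from 4 to 6 when each library was left out. Over 15 alternatives for each of 10 genes, 138 of 150 values kept direction and side of the threshold, 7 passed it and 5 changed sign. The sign changes were FOSB at -0.18 with limma-voom and -0.21 without PSCN library 1, JUN at -0.06 without PSCN library 3 and -0.02 against PSC library 3 alone, and JUND at 0.02 with the latter. Leaving out each library, FOSB ran from -0.21 to 0.45 and JUN from -0.06 to 0.17. The cause was not tested.

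Values that moved by over 1.5 times with sex as a covariate were FOSL2 at 2.10, ATF3 at 2.49, EGR1 at 1.37, FOSL1 at 0.60, FOSB at 0.35 and JUND at -0.05, none past the threshold. In that fit PSC library 1 is the only male PSC library, so sex and single libraries cannot be told apart. Same-numbered libraries share a number in the labels, which name no pairing. Their deviations from group means correlated at 0.186, -0.0535 and 0.0158 across genes, and not every library correlated best with its own number. With so few libraries these correlations cannot settle whether libraries were paired. The block changed no call among the 10 genes. It called 0 genes higher in the whole table, so that count does not bear on pairing. Under the block ATF3 had 1.22 (SE 0.24, edgeR adjusted p = 0.253). No scaling moved the median of all genes by more than 0.067 on the log2 scale. FOSB and FOSL1, at 116 to 519 counts per library, have the least depth of the 10.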

Other observations

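The other KLF genes were divided in direction, as all genes were. Of 14 tested from a list of 16, 7 were positive (50%, against 49.1% of all genes) and 7 negative (median log2 fold change -0.05). At an unadjusted p under 0.05 in edgeR, 0 were higher and 3 lower, where 9.48% and 12.2% of all genes were. EdgeR called 0 at the adjusted threshold. DESeq2 called 1 and limma-voom 3, all lower, where 8.2% and 5.84% of all genes were called lower. KLF2, KLF6 and KLF10 are also among the other immediate early genes. KLF15, a metabolic regulator, stood at 20.1, 18.0 and 4.81 CPM across PSC libraries 1 to 3 and at 3.51, 3.41 and 2.83 CPM across the PSCN group (log2 fold change -2.14, SE 0.55). KLF11 came to -1.06 (SE 0.41), and KLF2, a factor of endothelium and lymphocytes, stood at 111.8, 92.6 and 33.9 CPM in the PSC group and 31.1, 47.5 and 30.1 CPM in the PSCN group (log2 fold change -1.13, SE 0.46). In KLF15, KLF11 and KLF2, PSC library 3 lay with the PSCN libraries or close to them. KLF16 had 0.53 (SE 0.23). Without PSC library 3, 4 of the 14 were lower past the adjusted threshold, where 5.4% of all genes were.

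Heat shock genes, listed as a sign of stress on cells or samples, were positive in 8 of 8 (49.1% of all genes were), with a median log2 fold change of 0.86. At an unadjusted p under 0.05 in edgeR, 2 were higher and 0 lower, where 9.48% and 12.2% of all genes were. EdgeR called 0 at the adjusted threshold. DESeq2 called 1 and limma-voom 4, all higher, where 4.02% and 8.43% of all genes were called higher. HSPB1, a small heat shock protein also made in differentiating keratinocytes, stood at 94.4, 117.4 and 222.3 CPM in the PSC group and 455.5, 473.2 and 434.0 CPM in the PSCN group (log2 fold change 1.65, SE 0.35). BAG3 had 0.55 (SE 0.17). DNAJB1 had 1.18 (SE 0.51) and HSPA1B 1.54 (SE 0.81), both with overlapping groups. HSPA1B and HSPA1A are near-identical copies, so reads may be split between them. PSC library 3 was the highest PSC library in HSPB1, BAG3, DNAJB1 and HSPA1B. Whether handling of the biopsies had a part in the levels of the immediate early genes was not tested.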
